A study of Mus musculus with 4 samples.

Results

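The mitochondrial ribosomal protein genes were followed in B16F10 cells, a pigmented mouse melanoma line of wild-type genotype per the labels, after culture with an oil. Members were the genes of the count table whose symbol starts with Mrpl (large subunit) or Mrps (small subunit) followed by a digit, with at least 10 counts in at least 2 libraries. Of 78 such genes 77 qualified, 48 of the large and 29 of the small subunit, among 27179 genes in the table and 12675 genes tested. The excluded gene was Mrpl36, a large subunit gene with 5 counts in each ozonated oil library, against 5 and 7 counts in the plain oil libraries. Cells were given olive oil that had been treated with ozone (2 libraries) or plain olive oil (2 libraries), each at 0.01% for 6 h. Cells without oil were not analysed here, so every difference is between the oils. Nothing in the labels says that libraries of a group came from separate cultures, so p-values reflect the spread between the libraries, possibly a technical one.

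The mitochondrial ribosome translates the few proteins that mitochondrial DNA encodes, all of them membrane subunits of the respiratory chain and ATP synthase. Its ribosomal RNAs come from mitochondrial DNA, while every one of its proteins is encoded in the nucleus, made in the cytosol and imported. The large subunit joins amino acids and the small subunit reads the messenger RNA. Many of the proteins have counterparts in bacterial ribosomes and the rest are found in mitochondria only.

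The libraries held 22766948 and 30038784 counts with ozonated oil, against 22539486 and 23377947 with plain oil. Libraries of a group differed beyond counting noise: chi-square divided by its degrees of freedom was 129 for the ozonated oil pair and 39.3 for the plain oil pair. All 8 melanocyte markers examined, among them Mitf, Tyr and Pmel, exceeded 1 CPM in every library, and their summed level was 28660 to 32040 CPM with ozonated oil, against 25080 to 29770 CPM with plain oil. Fibroblast markers summed to 5.61 to 5.92 CPM with ozonated oil, against 7.39 to 7.84 CPM with plain oil, and keratinocyte markers to 0.789 to 14.2 CPM, against 2.18 to 18.3 CPM. Immune markers summed to 1.96 to 3.90 CPM with ozonated oil, against 0.924 to 2.75 CPM with plain oil, with Cd3e at 0, and endothelial markers to 0.0713 to 0.263 CPM, against 0.0424 to 0.168 CPM, with Cdh5 and Kdr at 0.

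Promoter stretches are shown for members whose oil groups did not overlap. Mrpl44 and Mrpl17 of the large and Mrps2 and Mrps26 of the small subunit had the smallest p-values among those with lower values in both ozonated oil libraries, and Mrpl33 is the large subunit gene with higher values in both. Each run is the 250 bases before a transcript start, from RefSeq (GRCm38.p6, to which mm10 corresponds), read 5′ to 3′ on the strand of the gene. The start used for Mrps2 lies inside its annotated gene span. Capitals mark matches to the motif cores searched for.
Mrpl44 (chr1:79775768-79776017, + strand): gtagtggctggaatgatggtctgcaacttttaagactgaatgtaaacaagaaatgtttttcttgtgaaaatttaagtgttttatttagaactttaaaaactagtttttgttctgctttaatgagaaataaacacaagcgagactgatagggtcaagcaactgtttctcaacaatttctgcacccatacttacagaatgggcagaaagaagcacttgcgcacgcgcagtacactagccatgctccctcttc
Mrpl17 (chr7:105811088-105811337, - strand): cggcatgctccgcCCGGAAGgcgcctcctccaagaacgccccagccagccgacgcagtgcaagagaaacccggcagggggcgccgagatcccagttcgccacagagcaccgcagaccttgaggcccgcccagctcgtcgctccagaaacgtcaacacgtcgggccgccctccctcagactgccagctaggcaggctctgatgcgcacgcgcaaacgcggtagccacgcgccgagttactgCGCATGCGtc
Mrpl33 (chr5:31613701-31613950, + strand): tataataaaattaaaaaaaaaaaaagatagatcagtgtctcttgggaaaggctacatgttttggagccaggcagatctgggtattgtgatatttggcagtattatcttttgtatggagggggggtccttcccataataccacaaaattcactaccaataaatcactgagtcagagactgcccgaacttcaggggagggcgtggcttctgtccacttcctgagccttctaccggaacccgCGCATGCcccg
Mrps2 (chr2:28467816-28468065, + strand): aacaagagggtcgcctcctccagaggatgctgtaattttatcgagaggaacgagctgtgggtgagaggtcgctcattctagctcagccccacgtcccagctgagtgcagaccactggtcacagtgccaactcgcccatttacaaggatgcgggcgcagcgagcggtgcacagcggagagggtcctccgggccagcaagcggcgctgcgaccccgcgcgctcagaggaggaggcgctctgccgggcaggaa
Mrps26 (chr2:130563507-130563756, + strand): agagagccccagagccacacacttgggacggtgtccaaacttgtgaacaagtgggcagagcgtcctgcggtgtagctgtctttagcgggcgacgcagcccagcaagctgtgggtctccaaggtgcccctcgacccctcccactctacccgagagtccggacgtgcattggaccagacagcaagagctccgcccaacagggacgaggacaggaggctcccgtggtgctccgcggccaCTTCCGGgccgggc

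The cores searched on both strands were CCGGAAG of ETS factors, the family of GABPA, GCATGCG of NRF1, AAGATGG of YY1 and CACGTG, the E-box that MYC binds. ETS factors, NRF1 and YY1 are known activators of nuclear genes for mitochondria. Promoter sequences, each spanning 250 bases before to 50 after the start, were found for 68 of 77 members. The ETS core was present for 26 members (38.2%), against 20.8% of 9808 tested genes with a promoter and 9.93% of all 27025 genes with a promoter. It occurred for 15 of 42 large and 11 of 26 small subunit genes. The NRF1 core was present for 8 members (11.8%), against 7.59% of tested genes, and 7 of these 8 encode large subunit proteins. The YY1 core was present for 12 members (17.6%), against 8.52% of tested genes. The E-box was present for 4 members (5.88%), against 12.1% of tested genes. An ETS core can overlap a YY1 core, since it ends with the letters with which the other begins, and NRF1 matches can overlap each other, as in Mrpl17, where matches on opposite strands begin 10 and 9 bases before the start. Mrpl17 also holds an ETS core 237 bases before the start, and Mrps26 holds an ETS core 14 bases before it. Mrpl33 holds an NRF1 core 11 bases before the start and an ETS core that begins 3 bases before it and runs past the printed stretch. In the windows of Mrpl44 and Mrps2 none of these letters were found. Members with an ETS core had a median log2 change of -0.050, against 0.024 for members without it, a description with no test. The medians with and without the core were 0.007 and 0.005 for NRF1 and -0.020 and 0.013 for YY1. For the E-box, present for 4 members, they were 0.117 and -0.009.

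Head-to-head gene pairs were frequent among members. In the GENCODE M21 annotation, 23 of the 78 matched genes (29.5%) had a protein-coding neighbour on the opposite strand whose start lay within 1000 bases upstream or overlapped by at most 200 bases, against 8.16% of the 20653 protein-coding genes of the table. The latter include genes too low to be tested here, and the share among tested genes was not computed. In the RefSeq annotation the large subunit gene Mrpl46 (chromosome 7, 78775341 to 78783089) and the small subunit gene Mrps11 (chromosome 7, 78783131 to 78792988) lie on opposite strands with 41 bases between them, a pair that GENCODE's starts do not place among the 23. Mrpl46 was at 20.3 and 31.1 CPM in ozonated oil libraries 1 and 2, against 25.4 and 29.3 CPM in plain oil libraries 1 and 2. Mrps11 was at 29.1 and 30.1 CPM, against 29.2 and 31.3 CPM. Mrpl46 thus spread widely between the ozonated oil libraries while Mrps11 was nearly level in all libraries, and both genes were chosen after their values were seen.

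No mitochondrial ribosomal protein gene passed the test between the oils. In bulk RNA, fewer cells of a type and less RNA per cell cannot be told apart. With edgeR's quasi-likelihood test, 0 of 77 members had an adjusted p below 0.05 over all genes (background 0%), and DESeq2 also called 0 of 77 (background 2.14%). At an unadjusted p below 0.05, 2 members were lower with ozonated oil (2.60% of members, background 5.29%), Mrpl44 and Mrps2, and 0 were higher (background 4.54%). The median log2 change of ozonated over plain oil was 0.014 for the large subunit, with 28 genes above and 20 below 0, and -0.055 for the small subunit, with 11 above and 18 below 0. Over all tested genes the median was 0.035. The changes of members ran from -0.47 to 0.32, with standard errors of 0.16 to 0.37. For 75 of 77 members the 95% interval of the change lay inside a 2-fold difference in either direction, the exceptions being Mrps28 and Mrpl54, and for 16 it lay inside 1.5-fold.

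These small group changes covered a wide separation of the ozonated oil libraries, which lay on opposite sides of the plain oil libraries. Levels were set against the plain oil mean of log2 CPM, so that 0 is the plain oil mean and the plain oil libraries mirror each other. Large subunit genes had a median of -0.26 in ozonated oil library 1 (0.834-fold) and 0.25 in ozonated oil library 2 (1.19-fold), against -0.035 and 0.035 in plain oil libraries 1 and 2. Small subunit genes had a median of -0.27 in ozonated oil library 1 (0.828-fold) and 0.12 in ozonated oil library 2 (1.08-fold), against -0.078 and 0.078 in plain oil libraries 1 and 2. Over all tested genes the medians were 0.00 and 0.028 in the ozonated oil libraries. Scaling by total counts put the small subunit median of ozonated oil library 2 at -0.028, with the median of all genes in that library at -0.12.

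**Figure D1:**
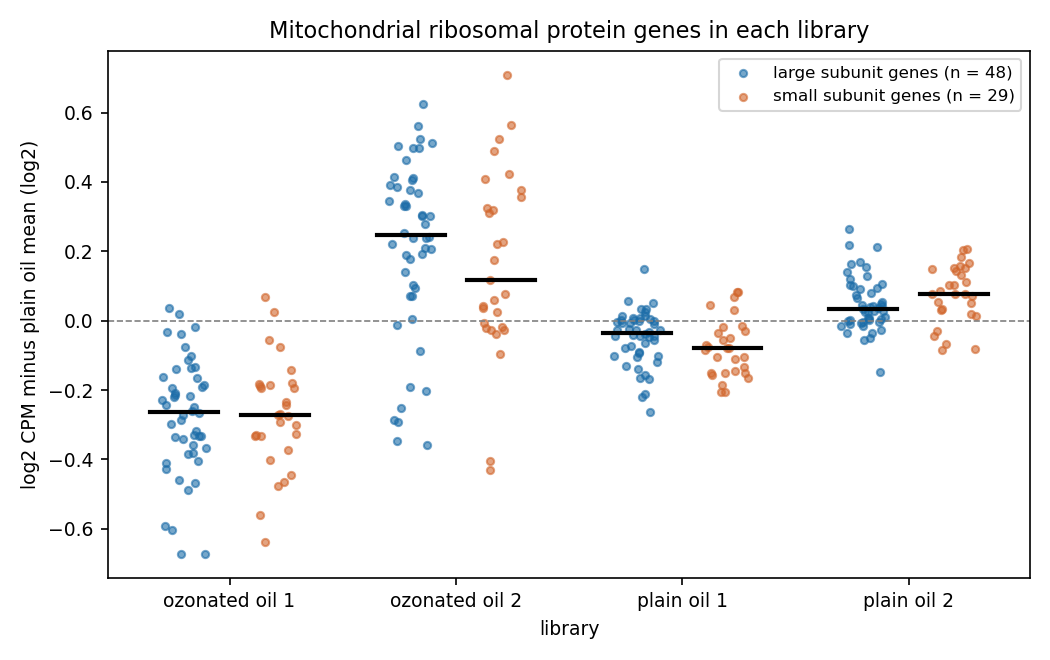
Each point is 1 gene, with its log2 CPM minus its plain oil mean on the vertical axis and the 4 libraries on the horizontal axis, and bars are medians of the 48 large and 29 small subunit genes. Most points lie below 0 in ozonated oil library 1 and above 0 in ozonated oil library 2, with medians of -0.26 and 0.25 for the large subunit and -0.27 and 0.12 for the small subunit.

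Counted by gene, ozonated oil library 1 lay below both plain oil libraries for 65 of 77 members (84.4%, background 37.8%) and above both for 2 (background 37%). Ozonated oil library 2 lay above both plain oil libraries for 55 members (71.4%, background 43.2%) and below both for 11 (background 39.3%). For 44 members, 31 large and 13 small, both held at once, with library 1 below and library 2 above the plain oil pair (57.1%, background 13%). Ozonated oil library 2 exceeded ozonated oil library 1 for 76 of 77 members (background 50.5%), by a median log2 difference of 0.47, and the exception was Mrps17. These backgrounds cover genes of all lengths, with a median transcript of 2801 bases against 1280 for members. All tested genes under 1000 bases had a median log2 difference of 0.55 between the same libraries. The plain oil libraries also differed in that direction, with library 2 above library 1 for 59 members (background 52.1%), by a median of 0.096. In fits with a library left out, members at an unadjusted edgeR p below 0.05 were 13 lower (background 6.56%) and 0 higher (background 6.39%) without ozonated oil library 2, and 2 lower (background 13.3%) and 12 higher (background 10.8%) without ozonated oil library 1. Without either plain oil library in turn there were 0 in each direction, where the background was 1.55% to 3.33% lower and 1.82% to 2.27% higher. In these 4 fits 0 members had an adjusted p below 0.05, where the background was 2.97% and 0.0229% without ozonated oil libraries 1 and 2, and 0.00764% and 0.281% without plain oil libraries 1 and 2. In each of them the spread came from the group that kept its pair and was taken to hold for the single library.

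The subunits had like medians in ozonated oil library 1 and stood slightly apart in library 2. The large minus small difference of medians was 0.0090 in ozonated oil library 1 and 0.13 in ozonated oil library 2, against 0.042 and -0.042 in the plain oil libraries. Summed over genes, the large subunit took 2421 and 3361 CPM in ozonated oil libraries 1 and 2, against 2829 and 3003 CPM in plain oil libraries 1 and 2. The small subunit took 1124 and 1548 CPM, against 1286 and 1416 CPM. The ratio of large to small sums was 2.16 and 2.17 with ozonated oil, against 2.20 and 2.12 with plain oil, so the ozonated values lay within the plain oil range. The subunit of a protein does not always match its symbol: in structures of the mammalian mitoribosome Mrps18a and Mrps30 sit in the large subunit, and Mrps36 is known as a part of the 2-oxoglutarate dehydrogenase complex. Placing genes by structure gave a large minus small difference of 0.0030 and 0.16 in ozonated oil libraries 1 and 2, against 0.064 and -0.064 in the plain oil libraries. With a length trend removed from each library, a setting added after the data were seen, the difference was 0.074 and -0.021 in ozonated oil libraries 1 and 2, against 0.055 and -0.055 in the plain oil libraries, so the order of the ozonated libraries turned.

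Members with bacterial counterparts and members found in mitochondria only both had their lowest median in ozonated oil library 1 and their highest in ozonated oil library 2. In the large subunit, the 29 genes with bacterial counterparts had medians of -0.22 and 0.30 in ozonated oil libraries 1 and 2, and the 19 mitochondria-only genes had -0.33 and 0.24, against -0.028 and 0.028 and against -0.043 and 0.043 in plain oil libraries 1 and 2. In the small subunit, the 18 genes with bacterial counterparts had -0.23 and 0.15, and the 10 mitochondria-only genes had -0.30 and 0.043, against -0.10 and 0.10 and against -0.033 and 0.033 in the plain oil libraries. For the last group ozonated oil library 2 was thus nearly level with plain oil library 2. Mrps36 was left out of this grouping.

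Among large subunit genes, those with the smallest p-values had lower values in both ozonated oil libraries. Mrpl44 (chromosome 1, 79776018 to 79781445) encodes a mitochondria-only protein with a ribonuclease III-like fold, and its variants cause cardiomyopathy in humans. It was at 47.6 and 56.5 CPM in ozonated oil libraries 1 and 2, against 73.2 and 70.5 CPM in plain oil libraries 1 and 2, a log2 change of -0.47 ± 0.18 (SE; edgeR adjusted p = 0.477). Both ozonated libraries lay well below the plain ones, which were close to each other. Mrpl17 (chromosome 7, 105803782 to 105811087) was at 41.0 and 50.8 CPM with ozonated oil, against 62.1 and 62.2 CPM with plain oil, a log2 change of -0.44 (edgeR adjusted p = 0.524). Mrpl40 was at 32.9 and 33.97 CPM, against 42.8 and 44.3 CPM, with nearly equal ozonated libraries. Mrpl50 was at 34.7 and 40.0 CPM with ozonated oil, against 48.8 and 48.7 CPM with plain oil. The last pair of proteins belongs to mitochondria only.

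Proteins of known roles in the large subunit showed the same order of groups in some cases. Mrpl12 (chromosome 11, 120484637 to 120488754), a stalk protein that contacts translation factors and also binds the mitochondrial RNA polymerase, was at 85.2 and 94.9 CPM with ozonated oil, against 113 and 113 CPM with plain oil (0.796-fold, edgeR adjusted p = 0.601). Mrpl3, next to the peptidyl transferase centre, was at 78.7 and 86.7 CPM, against 99.4 and 100.1 CPM. Mrpl19, a protein at the interface of the subunits, was at 61.7 and 86.2 CPM, against 94.6 and 102 CPM. All of these had both ozonated libraries below both plain ones, with library 1 the lower. Mrpl11, at the base of the stalk, was at 35.96 and 51.4 CPM with ozonated oil, against 35.2 and 44.5 CPM with plain oil, so its groups overlapped. Mrpl58, a peptidyl-tRNA hydrolase that frees stalled ribosomes, was at 46.1 and 71.6 CPM, against 54.4 and 62.0 CPM, with the plain libraries lying between the ozonated ones. Mrpl33 (chromosome 5, 31613951 to 31622644) was the large subunit gene with both ozonated libraries above both plain ones, at 75.9 and 105 CPM, against 75.7 and 72.3 CPM, and its library 1 value was within 1 CPM of plain oil library 1.

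Among small subunit genes, Mrps2 (chromosome 2, 28465951 to 28471177) had the smallest p. It was at 39.3 and 39.7 CPM in ozonated oil libraries 1 and 2, against 51.0 and 56.2 CPM in plain oil libraries 1 and 2, a log2 change of -0.44 ± 0.17 (SE; edgeR adjusted p = 0.497). Its ozonated libraries were nearly equal, unlike those of most members. Mrps26 was at 41.4 and 51.1 CPM with ozonated oil, against 51.7 and 57.6 CPM with plain oil, where the groups were separated by under 1 CPM. Mrps17 was at 7.41 and 6.35 CPM, against 8.81 and 8.02 CPM, from 169 and 178 counts with ozonated oil and 208 and 191 with plain oil. Mrps9 was at 50.6 and 69.7 CPM, against 45.3 and 54.5 CPM, and Mrps28 at 25.1 and 46.4 CPM, against 24.6 and 32.8 CPM, with overlapping groups in both. Mrps28 had the highest log2 change of all members, 0.32, with a standard error of 0.33, and without ozonated oil library 2 it was -0.20. Mrps36 was at 26.9 and 32.01 CPM with ozonated oil, against 24.7 and 26.7 CPM with plain oil, the other member higher in both libraries.

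Further genes named as small subunit proteins had oil groups that overlapped. Mrps12, at the decoding centre, was at 24.2 and 34.5 CPM with ozonated oil, against 31.9 and 35.5 CPM with plain oil. Mrps16, whose variants cause respiratory chain deficiency in humans, was at 18.5 and 26.2 CPM, against 21.8 and 24.6 CPM. Mrps22, likewise a human disease gene, was at 30.3 and 45.9 CPM, against 35.4 and 43.5 CPM. In each of the 3 the ozonated oil library 1 was the lowest library. Mrps34 was at 27.6 and 37.3 CPM, against 38.9 and 37.2 CPM. Among the S18 paralogs, Mrps18a was at 28.6 and 47.01 CPM with ozonated oil, against 47.2 and 42.1 CPM with plain oil. Mrps18b was at 6.10 and 9.27 CPM, against 8.09 and 9.99 CPM, and Mrps18c at 24.5 and 41.4 CPM, against 24.96 and 31.4 CPM. Mrps30 was at 46.3 and 69.4 CPM, against 55.4 and 56.5 CPM.

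**Figure D2:**
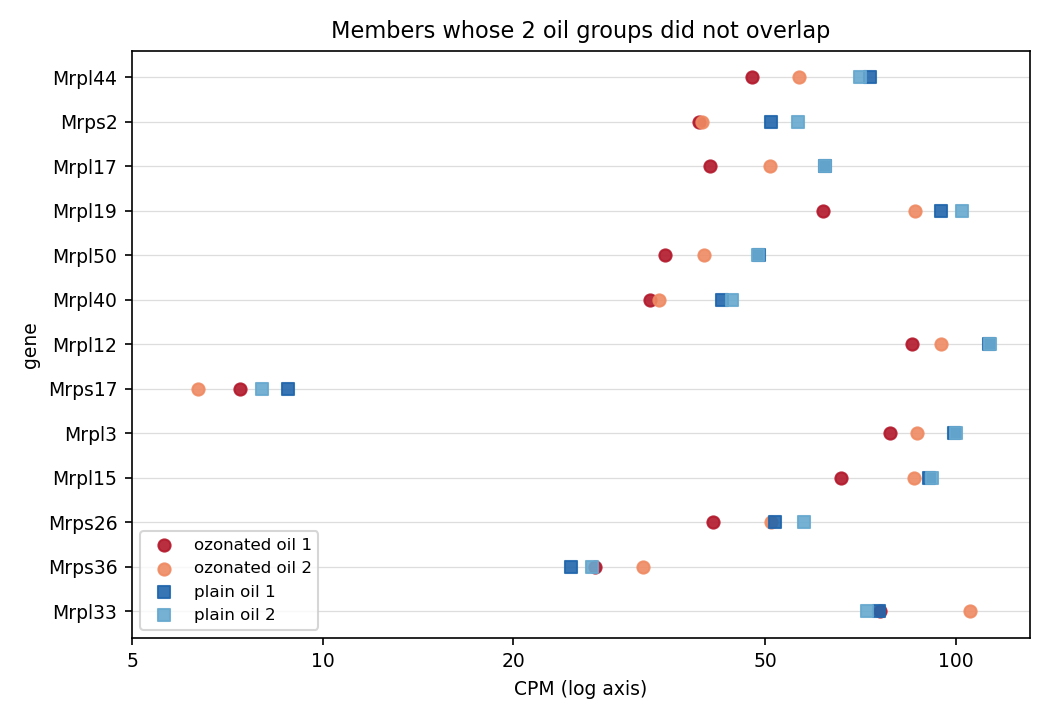
The level in CPM (log axis) is plotted for the 13 members whose oil groups did not overlap, with circles for the 2 ozonated and squares for the 2 plain oil libraries. In 11 genes, from Mrpl44 down to Mrps26, both circles lie left of both squares, and in Mrps36 and Mrpl33 both lie right of them.

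In all, both ozonated oil libraries lay below both plain oil libraries for 11 of 77 members (14.3%, background 20%), 8 large and 3 small, and above both for 2 (2.60%, background 19.9%). The share below was thus under that of all tested genes, and the share above was far under it. Beside the genes already given, the members lower in both libraries included Mrpl15, named after its values were seen, at 65.9 and 85.7 CPM with ozonated oil, against 90.6 and 91.6 CPM with plain oil.

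Levels of members spanned a wide range when divided by transcript length. Lengths are those of a transcript linked to a curated RefSeq mRNA in GENCODE M21, and for 5 genes it exceeded the RefSeq locus, so their levels per length are uncertain. The median was 39.6 CPM per kb for the large and 37.7 CPM per kb for the small subunit. The highest small subunit gene was Mrps21, at 173 and 283 CPM per kb in ozonated oil libraries 1 and 2, against 183 and 212 CPM per kb in plain oil libraries 1 and 2. Mrpl33 led the large subunit, at 159 and 221 CPM per kb, against 158 and 151 CPM per kb. Mrpl30 (139 and 193 CPM per kb, against 143 and 156) and Mrpl13 (129 and 194 CPM per kb, against 136 and 158) followed within the spread of their libraries. Mrps33 was at 83.6 and 122 CPM per kb, against 85.4 and 106, and Mrps24 averaged 84.3 CPM per kb over the 4 libraries. At the low end, Mrpl32, Mrpl17 and Mrpl47 averaged 8.17, 7.4 and 6.95 CPM per kb, and Mrps16, Mrps5 and Mrps17 averaged 8.85, 6.63 and 6.33 CPM per kb. This order rests in part on doubtful lengths, since Mrpl32 and Mrps16 are among the 5 genes just mentioned and the transcript used for Mrpl17 covers nearly its whole locus. Annotated exons of 15 of the 78 genes overlapped those of another gene of the table, 14 on the opposite strand, and since the strand setting of the counting is not given, their counts may hold reads of both. Mrpl36, Mrpl13, Mrpl47 and Mrpl9 are among them, and Mrps6 overlaps Slc5a3 on its own strand. Mrpl19, given above as lower in both ozonated libraries, overlaps Gcfc2 on the opposite strand. Mrpl43 overlaps Twnk, a gene given below, in the same way.

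Transcript length moved with the difference between the ozonated oil libraries, and its part in the result was not tested. Over all tested genes with a length, the median log2 difference of ozonated oil library 2 over library 1 was 0.55 for transcripts under 1000 bases, 0.34 from 1000 to under 1500, 0.16 from 1500 to under 2500, -0.044 from 2500 to under 4000 and -0.33 from 4000 bases. The members' medians in the same classes were 0.60 (27 genes), 0.51 (20 genes), 0.31 (13 genes), 0.55 (10 genes) and 0.31 (7 genes). The 2 longest classes hold all 5 genes whose transcript exceeds the RefSeq locus, so their placement there is uncertain. Median length was 1302 bases for the large subunit, 1197 for the small subunit and 2801 over all tested genes. Across the 77 members the difference had a Spearman correlation of -0.34 with length, and across 11729 tested genes one of -0.49, all within the same pair of libraries. Mrpl54, with a transcript of 604 bases and chosen after its value was seen, had the largest difference, at 19.4 and 39.1 CPM in ozonated oil libraries 1 and 2, against 21.1 and 30.4 CPM in plain oil libraries 1 and 2. In a setting added after the data were seen, with a length trend removed from each library, large subunit medians were -0.15 and -0.0050 in ozonated oil libraries 1 and 2, against -0.011 and 0.011 in the plain oil libraries. Small subunit medians were -0.23 and 0.017, against -0.066 and 0.066. Ozonated oil library 1 thus had the lowest medians there too, while library 2 lay within the plain oil pair for both subunits.

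**Figure D3:**
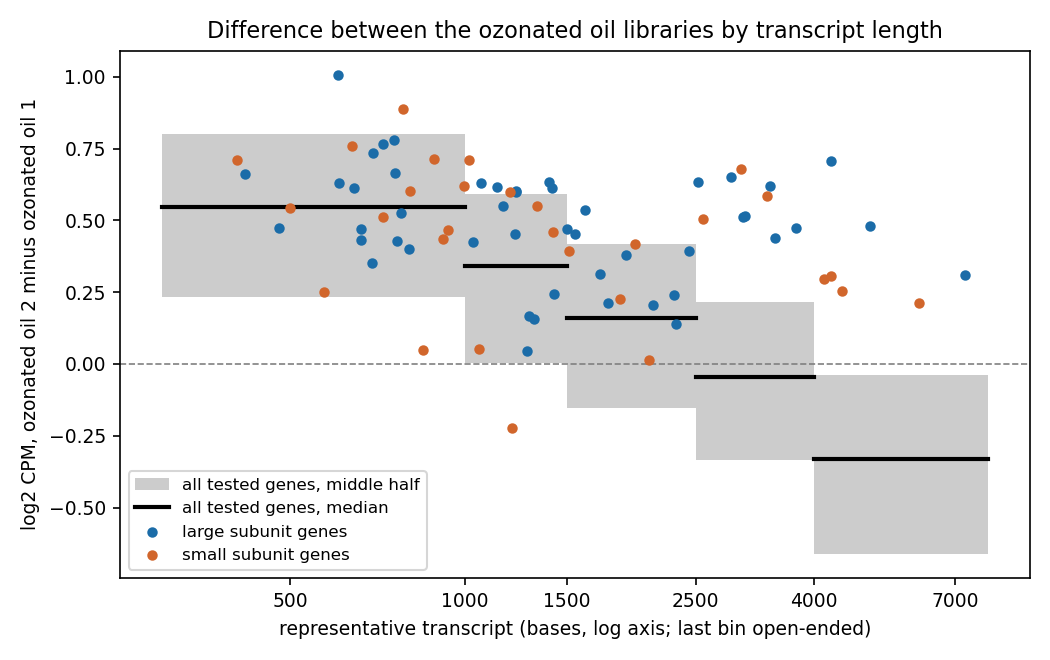
The log2 difference of ozonated oil library 2 minus library 1 is plotted against transcript length (log axis) for each member, over the median (line) and interquartile range (grey) of all tested genes in 5 length classes. The grey blocks step down with length, and members of 2500 bases or more all lie above them, with medians of 0.55 and 0.31 against -0.044 and -0.33.

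The lists of assembly, translation and mitochondrial DNA transcription genes had medians below 0 in ozonated oil library 1 and near 0 in library 2. Their median transcript lengths were 1821, 2425 and 1881 bases, against 1280 for members. Over all tested genes library 2 fell against library 1 with length, and the part of length in these list medians was not tested. No list was tested against the members. Of the 5 mitoribosomal proteins with other names, Ptcd3, a pentatricopeptide repeat protein of the small subunit, was at 117 and 85.4 CPM in ozonated oil libraries 1 and 2, against 161 and 147 CPM in plain oil libraries 1 and 2, a log2 change of -0.60 (edgeR adjusted p = 0.436). It had its lower value in library 2, the reverse of most members. Dap3, a GTP-binding small subunit protein, was at 90.4 and 121 CPM, against 98.3 and 103 CPM. Chchd1 (30.7 and 50.3 CPM, against 35.3 and 39.5), Aurkaip1 (53.8 and 72.3 CPM, against 56.6 and 55.6) and Gadd45gip1 (45.1 and 64.2 CPM, against 51.7 and 58.9) followed the order of the members. The ribosomal RNAs were higher in library 2 as well, with mt-Rnr1 of the small subunit at 397 and 629 CPM with ozonated oil, against 350 and 383 CPM with plain oil, and mt-Rnr2 of the large subunit at 907 and 1247 CPM, against 913 and 854 CPM.

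The 29 genes of mitoribosome assembly and ribosomal RNA modification had list medians of -0.27 and 0.023 in ozonated oil libraries 1 and 2, with a median log2 change of -0.15. Of them 1 was lower at an unadjusted edgeR p below 0.05 (background 5.29%), 0 were higher (background 4.54%) and 0 passed over all genes, shares that say nothing about the list. That gene was Mrm3, a ribosomal RNA methyltransferase, at 9.69 and 10.98 CPM with ozonated oil, against 15.3 and 15.1 CPM with plain oil. Gtpbp10, a GTPase of large subunit assembly, was at 0.759-fold and Rbfa, a small subunit maturation factor, at 0.711-fold. Both ozonated libraries lay below both plain ones for 12 of the 29 genes (background 20%). The 15 translation factors had medians of -0.22 and -0.021, with 0 genes at an unadjusted p below 0.05 (background 5.29% lower and 4.54% higher). Among them Gfm1, an elongation factor, was at 134 and 117 CPM, against 150 and 144 CPM, Guf1 at 0.875-fold, and Tufm at 73.0 and 81.7 CPM, against 83.3 and 90.8 CPM. Mtif3, an initiation factor, was at 14.1 and 22.6 CPM with ozonated oil, against 14.4 and 13.98 CPM with plain oil, and its log2 change of 0.37 was -0.019 without ozonated oil library 2. The 12 genes of mitochondrial DNA transcription and maintenance had medians of -0.21 and -0.028, again with 0 at an unadjusted p below 0.05 against the same background. In that list Tefm, a transcription elongation factor, was at 0.630-fold, the helicase gene Twnk at 0.791-fold and the polymerase gene Polg at 0.769-fold. Tfam, which packages mitochondrial DNA, was at 43.2 and 58.2 CPM, against 54.7 and 59.3 CPM, and Polrmt, the RNA polymerase, at 28.6 and 25.1 CPM, against 31.5 and 28.6 CPM.

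The 10 regulators of nuclear genes for mitochondria had list medians of -0.0030 and -0.17 in ozonated oil libraries 1 and 2. Their median transcript length was 4321.5 bases, and the part of length in that order was not tested. Of them 4 were lower at an unadjusted edgeR p below 0.05 (background 5.29%), 0 were higher (background 4.54%) and 0 passed over all genes. The list, with Myc in it, was chosen with earlier results of these data known, so its share is not a test of the list. Myc, a transcription factor of growth, was at 9.47 and 15.8 CPM in ozonated oil libraries 1 and 2, against 83.9 and 81.5 CPM in plain oil libraries 1 and 2 (edgeR adjusted p = 0.166), and DESeq2 called it (adjusted p = 6.581e-15). Myc had an edgeR adjusted p of 0.0185, 0.0196, 0.00520 and 0.00502 without ozonated oil library 1, ozonated oil library 2, plain oil library 1 and plain oil library 2. The coactivator genes Pprc1 and Ppargc1b were at 58.6 and 31.2 CPM, against 81.8 and 71.5 CPM, and at 6.67 and 3.17 CPM, against 12.03 and 9.20 CPM. The edgeR adjusted p of Pprc1 was 0.0269, 0.397, 1 and 0.843 without ozonated oil library 1, ozonated oil library 2, plain oil library 1 and plain oil library 2. The nuclear receptor gene Esrra was at 22.7 and 19.8 CPM, against 36.2 and 29.6 CPM. Ppargc1a, a related coactivator, was at 51.8 and 49.4 CPM with ozonated oil, against 39.4 and 38.8 CPM with plain oil (edgeR adjusted p = 0.553). Nrf1 was at 56.9 and 58.9 CPM, against 60.6 and 60.0 CPM, and Gabpa, which encodes the DNA-binding chain of an ETS factor, at 108 and 99.3 CPM, against 91.7 and 100.6 CPM. The group medians of the members were near 0, with their medians in ozonated oil libraries 1 and 2 on opposite sides of plain oil. With the length trend removed, the members' medians in library 2 lay within the plain oil pair. A link between regulators and members was not tested.

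Cytosolic ribosomal protein genes and nuclear respiratory chain genes had list medians further above plain oil in ozonated oil library 2 than the members. The 83 cytosolic genes had medians of -0.21 and 0.65 in ozonated oil libraries 1 and 2, against -0.18 and 0.18 in plain oil libraries 1 and 2. The 80 respiratory chain genes had -0.098 and 0.62, against -0.11 and 0.11. Their median transcript lengths were 768 and 731 bases. In both lists 0 genes had an unadjusted edgeR p below 0.05 (background 5.29% lower and 4.54% higher). Rps28 was at 1.35-fold and Rpl22l1 at 1.298-fold, and without ozonated oil library 2 their log2 changes were -0.046 and 0.031. Rpl7l1, at 0.723-fold, was the lowest of the cytosolic list, where 79 of 83 log2 changes were above 0 and 4 below. That list was drawn by symbol, and whether Rpl7l1 and Rpl22l1 encode proteins of the ribosome was not checked. Ndufa1, Ndufb6 and Cox7a2l were at 1.35-fold, 1.31-fold and 1.33-fold, each with both ozonated libraries above both plain ones, as for 7 of the 80 genes in all (background 19.9%). Whether the lists differ from the members was not tested.

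**Figure D4:**
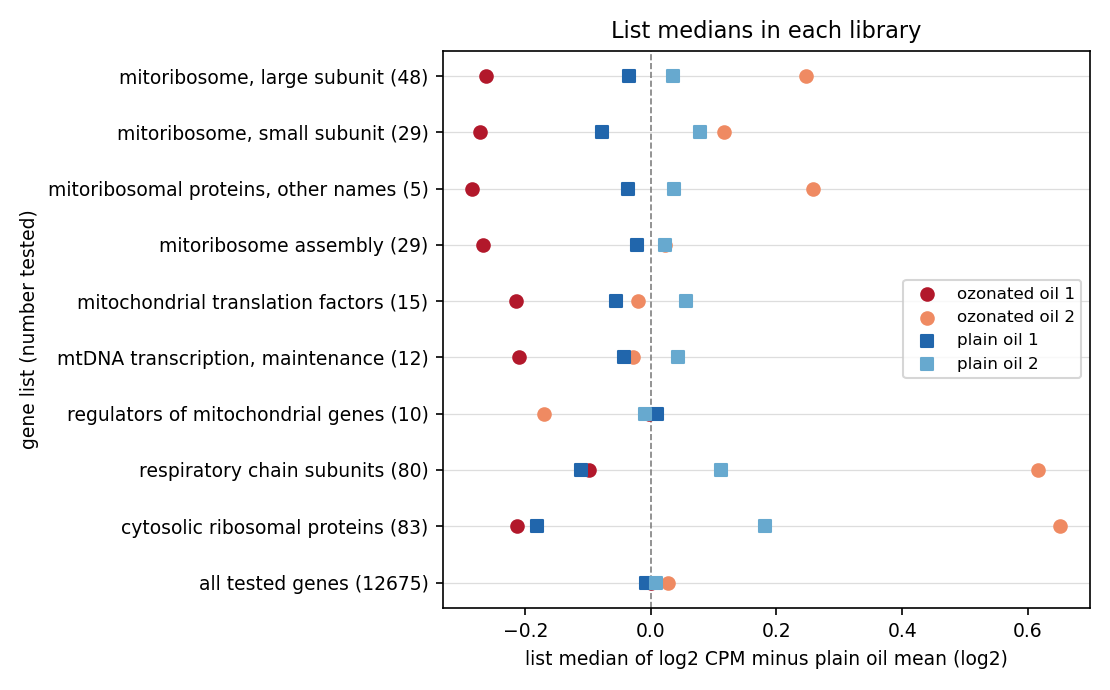
Each row is a gene list with its number of tested genes, and points are list medians of log2 CPM minus the plain oil mean, circles for the 2 ozonated and squares for the 2 plain oil libraries. In the mitoribosome rows ozonated oil library 1 is the leftmost point, at -0.26 and -0.27, and library 2 reaches 0.62 and 0.65 in the respiratory chain and cytosolic ribosome rows.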

How the data were processed

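RNA of 4 libraries was sequenced, 2 per oil, after a phenol-based extraction and a directional library kit, per the labels' protocols. Per the submitters' processing notes, the build was mm10 and the tools included HISAT2 2.1.0 and StringTie 1.3.4d. For the counting step, the sources used here name neither program, annotation nor strand setting. The deposited table holds raw read counts per gene, whole numbers that the authors did not normalize, and 1319 of its genes have no symbol.

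The whole table was fitted in R 4.3.3 with edgeR 4.0.16 (filterByExpr, trimmed mean of M-values, quasi-likelihood F-test, group as the only term, two-sided, Benjamini-Hochberg over all genes, threshold 0.05). CPM are on scaled library sizes, and log2 levels use a prior count of 0.5. Intervals take the standard error from the F statistic and cover these 2 libraries per group. With 2 against 2 libraries the smallest p of an exact permutation test is 0.333, and no such test was run. DESeq2 1.42.0, other scalings and filters, a replicate block and each library left out were alternatives. Sequences and positions came from RefSeq (GRCm38.p6), and lengths, strands and overlaps from GENCODE M21. Members, lists and tests were chosen with earlier results of these data known. Named genes were the 8 members per subunit of smallest p, the 3 highest and 3 lowest per length, a fixed list, and the 3 of smallest p in each other list. Members given beyond these are marked in the text, except Mrps6, also named after its values were seen. Mrpl36, Mrpl9 and Mrpl43 are named only for the count rule or exon overlap.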

Additional observations from a re-analysis of the deposited data

How the results depend on the processing

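No member passed an adjusted p of 0.05 under any alternative run. The number of members lower at an unadjusted p below 0.05, 2 in the report, was 7 with total-count scaling, 1 with no low-count filter, 6 with the replicate number as a block and 1 with DESeq2. With each library left out it ran from 0 to 13, and the number higher from 0 to 12. Over the same fits the median log2 change ran from -0.27 to 0.21 for the large subunit and from -0.28 to 0.084 for the small subunit. Other settings were median-of-ratios scaling, the structural placement of subunits, deeper members, members with no exon overlap and removal of the length trend. They moved these medians by less than the spread between libraries of a group, 0.257 for the large and 0.209 for the small subunit. That spread includes the gap between the ozonated oil libraries, so the bar is wide and staying under it says little. By library, removing the length trend took the large subunit median of ozonated oil library 2 from 0.247 to -0.005. With the block, 1160 genes of the table passed against 0 without it, among them Myc, Pprc1, Ppargc1b, Esrra, Ptcd3 and Tefm, and 0 members. Same-numbered libraries deviated together (correlation of 0.40 across genes). The labels give them only a shared number, so whether they were paired is unknown.

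Changes of single genes turned sign, also some of the higher ones: Mrps28, Mtif3 and Rps28 did so without ozonated oil library 2. With total-count scaling the log2 changes were -0.093 for Mrpl47, 0.000 for Mrps33, -0.086 for Mrpl58, -0.055 for Mrps30 and -0.035 for Dap3, and with the replicate block -0.0070 for Mrpl47 and -0.013 for Mrpl58. The cause was not tested beyond the scaling itself. With each library left out in turn, the log2 changes that crossed 0 ran as follows: Aurkaip1 -0.067 to 0.34, Chchd1 -0.29 to 0.40, Dap3 -0.17 to 0.23, Gadd45gip1 -0.30 to 0.18, Mrpl11 -0.16 to 0.34, Mrpl13 -0.20 to 0.37, Mrpl30 -0.11 to 0.34, Mrpl32 -0.17 to 0.31, Mrpl46 -0.44 to 0.15, Mrpl47 -0.34 to 0.25, Mrpl54 -0.42 to 0.57, Mrpl58 -0.34 to 0.27, Mrps11 -0.082 to 0.023, Mrps12 -0.49 to 0.003, Mrps16 -0.34 to 0.14, Mrps18a -0.65 to 0.043, Mrps18b -0.58 to 0.004, Mrps18c -0.21 to 0.52, Mrps21 -0.20 to 0.49, Mrps22 -0.39 to 0.19, Mrps24 -0.21 to 0.39, Mrps28 -0.20 to 0.66, Mrps30 -0.28 to 0.28, Mrps33 -0.21 to 0.32, Mrps6 -0.13 to 0.030, Mtif3 -0.019 to 0.64, Rps28 -0.046 to 0.76.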
